A study of Mus musculus with 2 samples.

Results

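Tendon is built by fibroblasts that lay down type I collagen under the control of scleraxis (Scx), a basic helix-loop-helix transcription factor, and Mohawk (Mkx), a homeobox factor. Tenomodulin (Tnmd) is a membrane glycoprotein of these cells and a standard tendon marker. Small leucine-rich proteoglycans such as fibromodulin (Fmod), lumican (Lum) and biglycan (Bgn) bind collagen and set the width and spacing of its fibrils, and chondroadherin (Chad) is a leucine-rich repeat protein of the same matrix. The thrombospondins Comp and Thbs4 assemble into pentamers that bind collagen, and Thbs4 is known from the junction between muscle and tendon. Cilp2 is a secreted matrix protein related to the cartilage intermediate layer protein Cilp.

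The data described here are the values of these 10 genes in gastrocnemius, the large calf muscle whose fibres insert on the Achilles tendon. The genes were taken by symbol from the deposited tables, which list 55536 genes in all, and each symbol belonged to 1 gene identifier. The samples form 1 group of 2 total RNA libraries. The mice were B6CASTF1/J males, 2 months old, and are first-generation hybrids of the strains B6 and CAST. ERCC spike-in RNA was added and 300 ng of RNA went into each library, and the labels give no treatment or allele that differs between them. The labels number the libraries as biological replicates and give each its own tissue sample under a shared donor entry, without stating that separate animals were used. A difference between libraries is thus a spread between these samples, and some of it may be technical.

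With 1 group the design compares no conditions, so the questions are how strongly the muscle expressed each gene and how far the libraries differed. The RNA came from muscle tissue, and in such bulk RNA fewer cells of a type and less RNA per cell cannot be told apart. Expected counts, the estimated reads per gene, summed to 42724520 in replicate 1 and 42280091 in replicate 2. Levels are given in TPM, a relative abundance that corrects for transcript length. Unless stated otherwise values come from the first of 2 kinds of deposited table, built from transcriptome alignments. A second kind, made from the reads by another route, is named where used. Markers of the labelled tissue were abundant, the 8 muscle fibre genes, Acta1, Ckm and Tnnt3 among them, summing to 93571 TPM in replicate 1, with 75819 in replicate 2.

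Promoters, taken as 250 bases before to 50 bases after the transcription start, were given by RefSeq on GRCm38.p6 for 6 of the 10 genes. They were searched on both strands for CANNTG, the E-box word that basic helix-loop-helix factors such as scleraxis are known to bind, and for TATAAA, the core of a TATA box. Shown are the 4 whose genes were at least 1.5-fold higher in replicate 2 (below), and Bgn, which did not pass the test between the libraries. Each reads 5′ to 3′ on the strand of its gene, and capitals mark matches to either word.

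Fmod: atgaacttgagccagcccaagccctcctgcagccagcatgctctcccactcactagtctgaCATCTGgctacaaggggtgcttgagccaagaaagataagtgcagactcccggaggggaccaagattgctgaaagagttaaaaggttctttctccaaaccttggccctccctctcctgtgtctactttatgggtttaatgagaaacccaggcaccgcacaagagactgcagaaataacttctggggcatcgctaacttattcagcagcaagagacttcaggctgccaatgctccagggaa
Chad: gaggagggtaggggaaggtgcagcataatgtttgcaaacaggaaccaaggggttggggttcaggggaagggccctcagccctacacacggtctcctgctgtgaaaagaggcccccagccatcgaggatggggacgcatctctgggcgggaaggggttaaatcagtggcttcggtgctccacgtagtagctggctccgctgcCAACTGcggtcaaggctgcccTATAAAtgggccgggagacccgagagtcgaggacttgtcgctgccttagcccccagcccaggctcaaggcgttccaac
Cilp2: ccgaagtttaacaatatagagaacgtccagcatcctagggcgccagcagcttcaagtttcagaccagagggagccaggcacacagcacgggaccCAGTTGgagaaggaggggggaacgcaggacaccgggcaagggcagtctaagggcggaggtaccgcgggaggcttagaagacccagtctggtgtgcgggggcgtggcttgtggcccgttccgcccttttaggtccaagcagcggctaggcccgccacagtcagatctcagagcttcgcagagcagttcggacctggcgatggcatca
Tnmd: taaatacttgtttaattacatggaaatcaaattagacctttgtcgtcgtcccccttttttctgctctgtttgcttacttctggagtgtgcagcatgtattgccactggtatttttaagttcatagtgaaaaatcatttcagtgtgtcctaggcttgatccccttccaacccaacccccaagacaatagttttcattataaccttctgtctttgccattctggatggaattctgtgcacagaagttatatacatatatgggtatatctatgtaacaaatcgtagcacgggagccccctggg
Bgn: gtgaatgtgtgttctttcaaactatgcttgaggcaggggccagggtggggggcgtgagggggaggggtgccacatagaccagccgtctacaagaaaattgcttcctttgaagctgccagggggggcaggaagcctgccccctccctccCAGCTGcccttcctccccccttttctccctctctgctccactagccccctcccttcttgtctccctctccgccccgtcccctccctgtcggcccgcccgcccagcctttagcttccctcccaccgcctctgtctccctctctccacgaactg

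The windows lie at chr1:134037004-134037303 (Fmod, plus strand), chr11:94564797-94565096 (Chad, plus), chr8:69887343-69887642 (Cilp2, minus), chrX:133850758-133851057 (Tnmd, plus) and chrX:73483351-73483650 (Bgn, plus). An E-box word was found in 5 of the 6 promoters, against 72.3% of 32851 mouse promoters of the same length. Counted from the start of transcription, the word began at -189 in Fmod (CATCTG), -49 in Chad (CAACTG), -156 in Cilp2 (CAGTTG) and -102 in Bgn (CAGCTG). The promoter of Thbs4 held 2, the first at -115, and that of Tnmd held none. TATAAA was found in 1 of 6, at -28 in Chad, against 13.6% of all promoters, and it overlapped no E-box word. These matches are letters in a window and say nothing of binding in this muscle.

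The proteoglycan and chondroadherin genes made the largest share of the RNA of the 10 genes, at 55.9% of their summed TPM in replicate 1 and 56.1% in replicate 2. Fmod, whose product carries keratan sulfate and binds type I collagen, stood at 21.03 TPM (2182 reads) in replicate 1 and 38.13 TPM (3949 reads) in replicate 2, a mean of 29.6 ± 12.1 (SD, n = 2). It was the highest of the 10 in replicate 2 and the next highest, after Thbs4, in replicate 1. Bgn, a chondroitin and dermatan sulfate proteoglycan, stood at 14.72 TPM (1138 reads) in replicate 1 and 15.99 TPM (1195 reads) in replicate 2. Its mean of 15.4 ± 0.898 TPM had a much smaller spread than that of Fmod. Lum, a close relative of Fmod that shares its collagen binding, was low at 2.92 TPM (236 reads) and 2.64 TPM (213 reads), with a mean of 2.78 ± 0.198. Chad, which binds collagen and integrins, stood at 3.74 TPM (203 reads) in replicate 1 and 7.84 TPM (426 reads) in replicate 2, a mean of 5.79 ± 2.90. Fmod was thus 7.20 times as abundant as Lum in replicate 1 and 14.4 times in replicate 2, per length.

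The pentameric thrombospondins held 34.1% of the summed TPM in replicate 1 and 32.5% in replicate 2, most of it Thbs4. Thbs4 stood at 23.73 TPM (2526 reads) in replicate 1 and 32.94 TPM (3510 reads) in replicate 2, a mean of 28.3 ± 6.51 (SD, n = 2). Comp, the cartilage oligomeric matrix protein that is also abundant in load-bearing tendon, stood at 2.16 TPM (172 reads) and 4.49 TPM (354 reads), a mean of 3.33 ± 1.65. The level of Comp was 0.0910 of that of Thbs4 in replicate 1 and 0.136 in replicate 2. Tnmd and the transcription factors were low. Tnmd stood at 2.60 TPM (112 reads) in replicate 1 and 4.64 TPM (200 reads) in replicate 2, a mean of 3.62 ± 1.44. Scx, which is known to drive Tnmd in tendon cells, stood at 2.71 TPM (90 reads) and 4.09 TPM (143 reads), a mean of 3.40 ± 0.976. Mkx had the fewest reads of all, 43 in replicate 1 and 52 in replicate 2, at 0.94 and 1.25 TPM. Cilp2 stood at 1.37 TPM (198 reads) and 3.04 TPM (440 reads), a mean of 2.21 ± 1.18, and its transcript is the longest of the 10 main ones at 4314 nt. In 9 of the 10 genes replicate 2 was the higher library by TPM, Lum being the exception. By scaled count it was also 9 of 10, against 50.3% of all genes tested. Mkx and Bgn are among the 9 though they did not pass the test between the libraries (below).

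**Figure D1:**
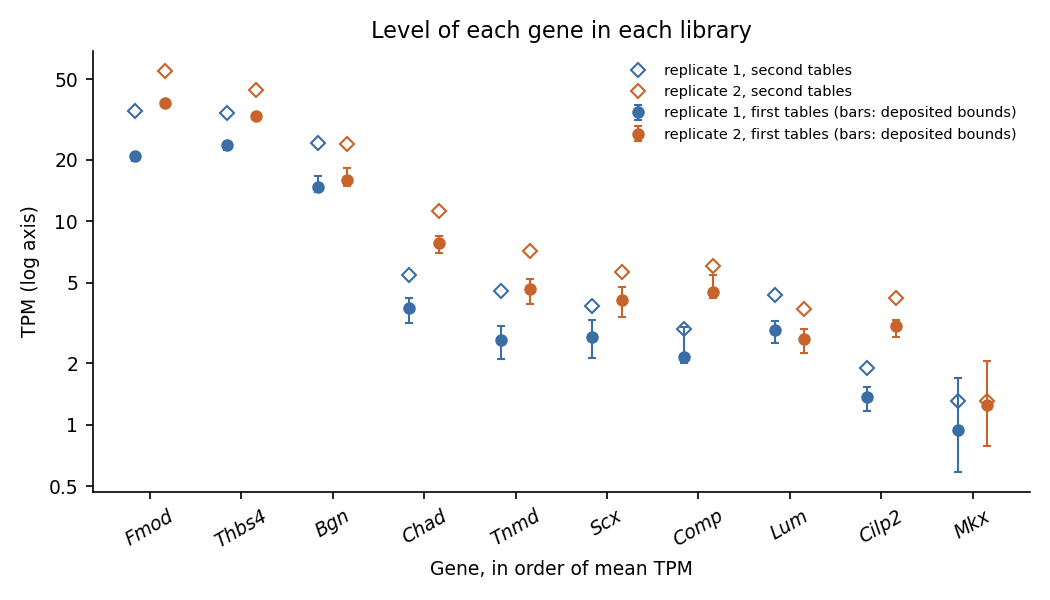
TPM of each gene on a log axis, in order of mean level, with replicate 1 in blue and replicate 2 in orange. Filled circles are the first tables, with the credibility bounds the authors deposited as bars, and open diamonds the second tables. Fmod, Thbs4 and Bgn stand above the other 7 genes in both libraries and both kinds of table. Lum is the gene whose blue marks lie above its orange ones in both kinds of table, though its bars overlap.

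By mean TPM the order was Fmod, Thbs4, Bgn, Chad, Tnmd, Scx, Comp, Lum, Cilp2 and Mkx. The ranges over the 2 libraries overlapped for 6 of the 9 neighbouring pairs. Within each library Chad was still above Tnmd, at 3.74 against 2.60 TPM in replicate 1 and 7.84 against 4.64 in replicate 2. The other overlapping neighbours changed order between the libraries, so that their order is not fixed by these data. The 3 neighbours that did not overlap were Thbs4 above Bgn, Bgn above Chad, and Cilp2 above Mkx. The last gap was narrow, with Cilp2 at 1.37 TPM in replicate 1 and Mkx at 1.25 in replicate 2. The deposited bounds of Mkx in replicate 2, 0.787 to 2.06, hold that value of Cilp2, so this order is uncertain. The leading trio Fmod, Thbs4 and Bgn held 78.3% of the summed TPM of the 10 genes in replicate 1 and 75.7% in replicate 2. Among the 15870 protein-coding genes with a TPM above 0, ranked by mean TPM, Fmod was number 1599, Thbs4 1665, Bgn 2903 and Chad 5760. Cilp2 was number 8393 and Mkx 9907, the only members below the median gene. The sum over the 10 genes was 75.92 TPM in replicate 1 and 115.05 TPM in replicate 2, or 95.5 ± 27.7 (SD, n = 2).

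The level in TPM depended on the kind of table more than the read count did. Reads in the second tables were 0.895 to 1.16 times those of the first tables over the 10 genes and both libraries. TPM in the second tables was 1.34 to 1.75 times that of the first for the genes other than Mkx, which stood at 1.31 TPM in both libraries there. The second tables had Fmod at 34.6 TPM in replicate 1, with 54.9 in replicate 2. Thbs4 was there at 33.9 and 44.4 TPM, so that the order of Fmod and Thbs4 in replicate 1 turned between the tables. Bgn was at 24.1 and 24.0 TPM and Chad at 5.42 and 11.3 TPM. Tnmd was at 4.55 and 7.16 TPM, Scx at 3.85 and 5.62, Comp at 2.95 and 6.02, Lum at 4.33 and 3.70, and Cilp2 at 1.90 and 4.20. The summed level was 116.9 and 162.5 TPM in these tables, and the gap between the libraries kept its direction.

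Between the libraries, 7 of the 10 genes were higher in replicate 2 at an adjusted p under 0.05, and 14.4% of all 14827 genes tested were. The test was a two-sided exact binomial test on scaled counts, run on every gene with 20 or more reads over both libraries with Benjamini-Hochberg adjustment over those genes. The test sets these libraries against each other and covers counting error only, so it has no replicate check and speaks of no condition. All 10 genes passed the count minimum. Of the 10 genes 6 were also at least 1.5-fold higher in replicate 2, against 4.19% of all genes. In the other direction 0 of 10 passed at an adjusted p under 0.05 of the exact binomial test, against 11.7% of all genes, and 2.75% past 1.5-fold. At an unadjusted p under 0.05 of that test it was also 0 of 10, against 2332 of the 14827 genes. Among the 10054 genes with 200 or more reads, which leave out Mkx alone of the 10, 18.8% were higher in replicate 2 and 14.8% in replicate 1, or 3.76% and 1.65% past 1.5-fold. The median log2 ratio of replicate 2 over replicate 1 was 0.80 over the 10 genes and 0.00 over all genes tested. The genes were chosen with earlier results on these libraries known, and the counts are a description.

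The widest differences were those of 3 secreted matrix genes, Cilp2, Chad and Comp. Cilp2, with 198 and 440 reads, had a 2.30-fold higher scaled count in replicate 2 (95% counting interval 1.94 to 2.73, adjusted p = 1.31e-22 by the exact binomial test). Chad was 2.17-fold higher (1.83 to 2.58) and Comp 2.13-fold higher (1.77 to 2.57). The log2 ratios of these 3, 1.20, 1.12 and 1.09, lay outside the central 95% of all genes tested, which ran from -0.89 to 0.97. That band includes genes with few reads. For genes with 200 or more reads it ran from -0.50 to 0.74, and Fmod (0.90) and Tnmd (0.88) also lay outside it. Fmod was 1.87-fold higher (1.78 to 1.97, adjusted p = 1.49e-125) and its interval was narrow, since it had the most reads of the 10. Thbs4, with nearly as many reads, differed less, at 1.44-fold (1.37 to 1.51, adjusted p = 7.20e-43), and it is the called gene below 1.5-fold.

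The cell-bound and nuclear members followed with wider intervals. Tnmd was 1.84-fold higher in replicate 2 (1.46 to 2.35, adjusted p = 1.22e-06 by the exact binomial test). Scx was 1.64-fold higher (1.25 to 2.16, adjusted p = 0.00146). Mkx, the other transcription factor, had a ratio of 1.25 with an interval of 0.819 to 1.92 (adjusted p = 0.528), so that at 43 and 52 reads neither no difference nor one of the size of Scx could be told from its value. Bgn and Lum are well covered by comparison, and their intervals are narrow. Bgn had a ratio of 1.09 (1.00 to 1.18, unadjusted p = 0.0468, adjusted p = 0.139 by the exact binomial test). Lum had a ratio of 0.934 (0.772 to 1.13, adjusted p = 0.694). The upper ends for Bgn and Lum lie below the lower ends of all 7 genes that passed.

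**Figure D2:**
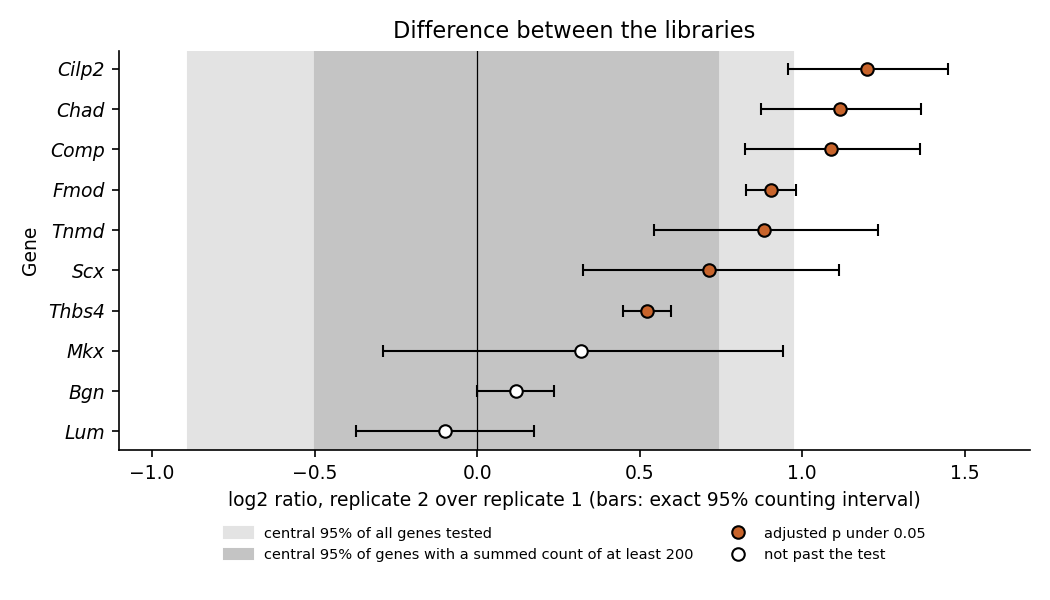
Log2 ratio of replicate 2 over replicate 1 for each gene, with exact 95% counting intervals as bars. The pale band is the central 95% of all 14827 genes tested and the darker band that of the 10054 genes with 200 or more reads, from -0.50 to 0.74. Cilp2, Chad and Comp lie to the right of the pale band, and the open points of Mkx, Bgn and Lum did not pass the test.

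Ratios of 2 genes within a library do not depend on how the libraries are scaled. Of the 45 ratios among the 10 genes, 24 differed between the libraries with a 95% counting interval that left out 1. No p was computed for them and the intervals were not adjusted for their number. The share among pairs of other genes was not computed, so the count is not shown to be particular to these genes. Among the proteoglycan and chondroadherin genes the ratio of Fmod reads to Lum reads in replicate 2 was 2.01 times that in replicate 1 (1.65 to 2.44), and that of Fmod to Bgn 1.72 times (1.56 to 1.90). For Fmod to Chad the factor was 0.862 (0.720 to 1.03) and for Lum to Bgn 0.860 (0.698 to 1.06), and both intervals hold 1. For Bgn to Chad it was 0.501 (0.413 to 0.605) and for Lum to Chad 0.430 (0.333 to 0.556). Read in this way, a grouping made after the values were seen, the 4 genes fell into 2 pairs, Fmod with Chad and Lum with Bgn, with all 4 ratios across the pairs clear of 1.

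Outside that family, the factor for Comp to Chad was 0.981 (0.760 to 1.27), for Comp to Cilp2 0.926 (0.718 to 1.20) and for Chad to Cilp2 0.944 (0.740 to 1.21). These 3 genes were set together after the values were seen, as those with the widest differences, each more than 2-fold higher in replicate 2. Factors near 1 among them follow from that choice and do not show that they vary together. For Tnmd to Fmod the factor was 0.987 (0.774 to 1.26), and for Tnmd to Scx, its known regulator, 1.12 (0.779 to 1.62). Between the pentameric thrombospondins, Comp to Thbs4, it was 1.48 (1.22 to 1.80). For Scx to Mkx it was 1.31 (0.786 to 2.19), an interval too wide to separate the transcription factors. Lum, Bgn and Thbs4 each had 7 of their 9 ratios clear of 1, Cilp2 had 6, and Fmod, Comp and Chad had 4 each. These tallies also depend on the reads of each gene, and no share over other genes stands beside them.

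**Figure D3:**
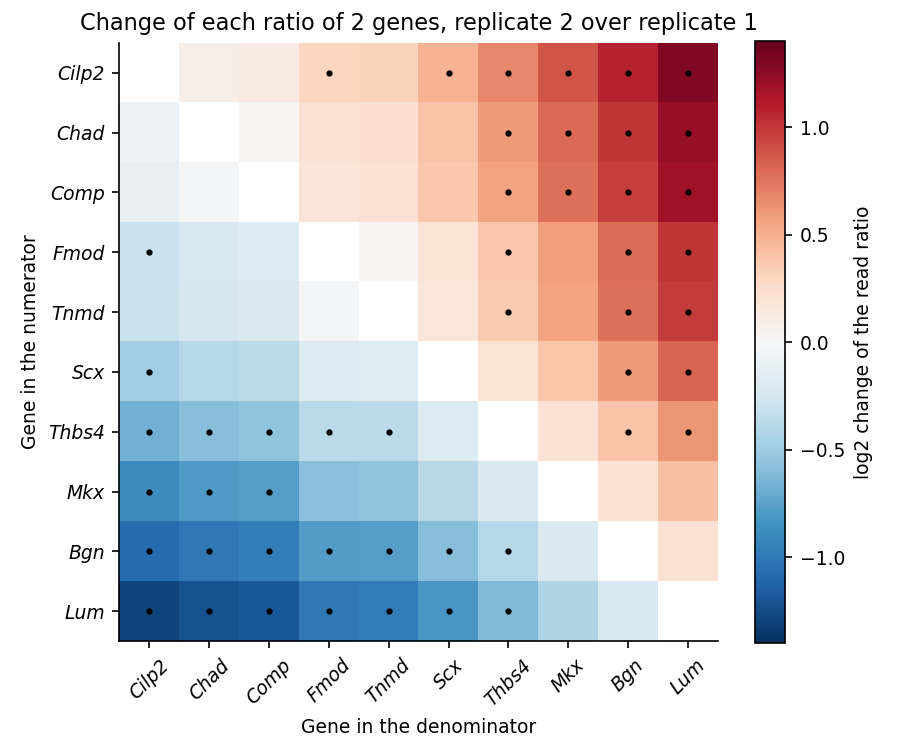
Log2 difference, replicate 2 against replicate 1, of the read ratio of each row gene over each column gene, in red where the ratio was larger in replicate 2 and blue where smaller. A dot marks a 95% counting interval that leaves out 0. Both axes list the genes in order of their library difference, and the dots gather in the columns and rows of Bgn, Lum and Thbs4.

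At the level of transcripts, 4 of the 10 genes, Tnmd, Lum, Chad and Cilp2, have 1 annotated transcript, and in Comp, Thbs4 and Fmod 1 coding transcript held at least 98.9% of the reads in both libraries and both kinds of table. The reads of Mkx were more divided. Its longer coding transcript Mkx-201, of 3650 nt, held 78.0% of the reads of the gene in replicate 1 and 74.4% in replicate 2. Of the TPM of the gene it held 29.2% and 25.3%. The short retained-intron transcript Mkx-203, of 425 nt, held 11.8% and 13.4% of the reads and 48.3% and 49.4% of the TPM. Those shares rest on 5.09 and 6.95 estimated reads, and the second tables gave Mkx-203 0 reads in both libraries. There another retained-intron transcript, Mkx-204 of 684 nt, held 43.1% and 43.8% of the TPM. A shorter coding transcript, Mkx-202 of 722 nt, held 28.6% and 17.1% there, and had 1.66 and 0 reads in the first tables. Mkx-201 alone stood at 0.28 TPM in replicate 1, with 0.32 in replicate 2, against 0.94 and 1.25 TPM for the gene.

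The tables also divided Bgn, Scx and Fmod differently. In Bgn the coding transcript Bgn-201 held 98.3% and 97.8% of the reads in the first tables, and 93.2% and 93.8% in the second. The noncoding Bgn-203, of 828 nt, had 3.29 and 0 reads in the first tables and 69.5 and 68.7 in the second, where it made 21.01% and 19.95% of the TPM of the gene. Bgn-208, of 548 nt, had 6.70 and 18.6 reads in the first tables and 0 in the second. In Scx, whose gene is short, the retained-intron transcript Scx-202 held 6.06% of the reads in replicate 1 and 15.7% in replicate 2 of the first tables, and 13.7% and 17.8% of the second. The coding Scx-201 alone had 84.6 and 120.5 reads in the first tables and 70.8 and 105.2 in the second. The short Fmod-202, of 532 nt, had 0 and 2.01 reads in the first tables but 27.1 and 15.2 in the second, or 14.0% and 4.74% of the TPM of Fmod there.

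**Figure D4:**
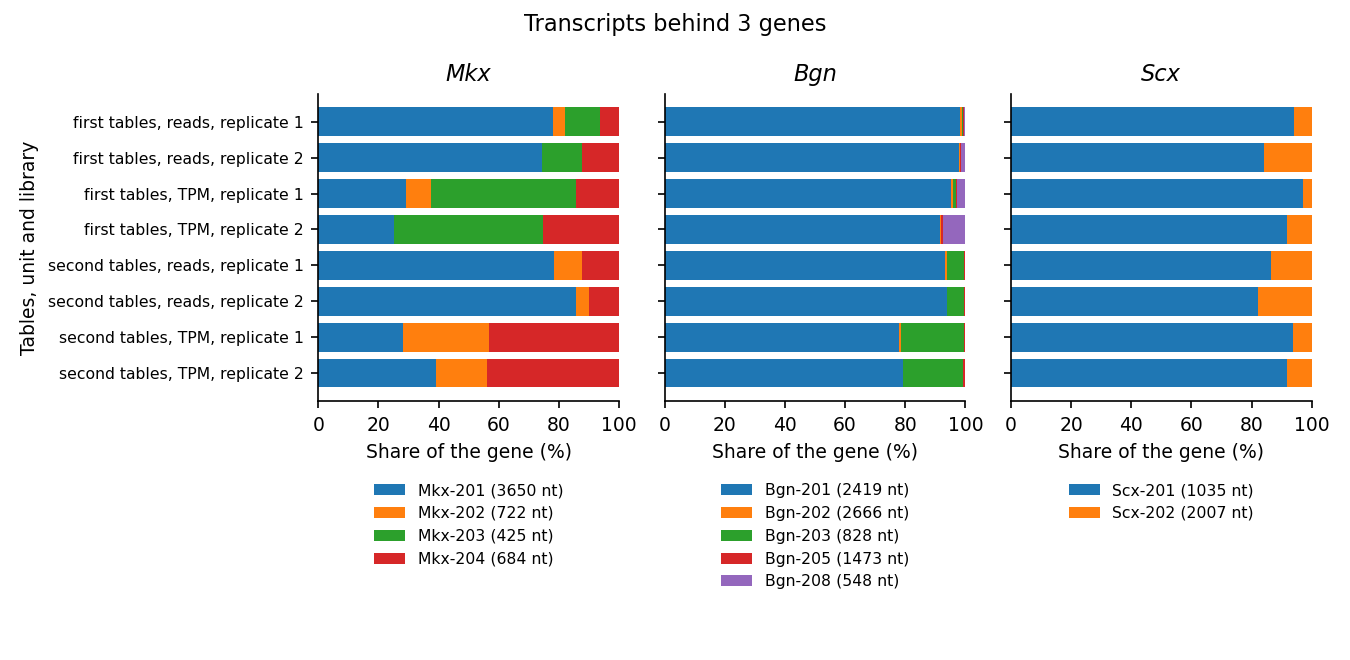
Share of each transcript in the reads and in the TPM of Mkx, Bgn and Scx, as stacked bars for both libraries and both kinds of table. In Mkx the long Mkx-201 fills most of the reads but under 40% of the TPM, and Mkx-203 appears in the first tables alone, while in Bgn and Scx 1 coding transcript fills most of every bar.

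The members share little sequence with other genes. In the annotation (mm10) Fmod lies on chromosome 1 from 134037254 to 134048277, Lum on 10 from 97565128 to 97572703, Chad on 11 from 94565047 to 94569127 and Bgn on X from 73483602 to 73495933. Comp lies on chromosome 8 from 70373558 to 70382066, Cilp2 on 8 from 69880369 to 69887687, Thbs4 on 13 from 92751590 to 92794818, Tnmd on X from 133850980 to 133865577, Scx on 15 from 76457452 to 76459458 and Mkx on 18 from 6934518 to 7004780. No stretch of 100 nt in the main transcript was shared with another annotated gene in 9 of the 10. In Mkx-201, 102 of 3551 such stretches were shared with AC148004.2, a sense-overlapping transcript that was given 0 reads in both libraries. The posterior standard deviation of the count, deposited by the authors, was 0 in both libraries for the genes other than Mkx.

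Scx and Chad each lie within the span of a gene on the opposite strand, with 0 shared exonic bases. Scx lies within Bop1, a ribosome biogenesis gene, which had 670 reads in replicate 1 and 601 in replicate 2 and a log2 ratio of -0.11 (adjusted p = 0.385 by the exact binomial test). Chad lies within Acsf2, an acyl-CoA synthetase gene, which had 66.4 and 92.7 reads and a log2 ratio of 0.54 (adjusted p = 0.0742). The sources used here do not say whether strand entered the counting. Without strand, reads from introns of Bop1 or Acsf2 that lie on exons of Scx or Chad cannot be told apart from theirs, and their part in the values was not tested.

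Other genes of the same matrix were read from lists of related genes and cell type markers. Of 14 other small leucine-rich proteoglycans 10 were tested, and 2 passed in the direction of each library. The median log2 ratio was -0.08, against 0.00 over all genes. Decorin (Dcn), the main such proteoglycan of connective tissue, was far more abundant than the members, at 106.4 TPM in replicate 1, with 87.4 in replicate 2, and was higher in replicate 1 (log2 ratio -0.25). Prelp, at 7.63 and 9.65 TPM, and keratocan (Kera), a keratan sulfate proteoglycan, at 1.56 and 2.61 TPM, were higher in replicate 2, by log2 ratios of 0.42 and 0.79. Osteoglycin (Ogn) did not pass the test, at 8.36 and 7.55 TPM. The other gene higher in replicate 1 was Podn (-0.40).

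Of 5 relatives of the thrombospondins, Cilp2 and Tnmd, 4 were tested, and replicate 2 was higher for 2 of them and replicate 1 for 1. Thbs1 stood at 2.41 and 4.44 TPM (log2 ratio 0.93) and Thbs2 at 2.30 and 3.88 TPM (0.82), while Thbs3 stood at 2.51 TPM in replicate 1, with 1.18 in replicate 2 (-1.03). Thbs1 and Thbs2 form trimers, and Thbs3, like Comp and Thbs4, pentamers. Cilp, the relative of Cilp2, was at 5.11 and 4.81 TPM with a log2 ratio of -0.04 that did not pass the test. Chondromodulin (Cnmd), the relative of Tnmd, had 2 and 3 reads.

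All 20 collagen and collagen-processing genes were tested, of which 5 passed as higher in replicate 2 and 9 in replicate 1, and the median log2 ratio was -0.21. Col1a1 and Col1a2 encode the chains of type I collagen, the main collagen of tendon. Col1a1 was at 60.6 and 88.0 TPM (log2 ratio 0.59) and Col1a2 at 49.7 and 72.4 TPM (0.53), both higher in replicate 2. Col11a1 also was higher in replicate 2 (1.03). Col3a1, typical of looser connective tissue and the muscle sheaths, was at 54.4 TPM in replicate 1, with 30.3 in replicate 2 (-0.67), and Col5a1 (-0.69) and Col14a1 (-1.03) too were higher in replicate 1. Of 16 genes of TGF-beta signalling and tendon regulation 15 were tested, 3 passed toward replicate 2 and 5 toward replicate 1, and the median was 0.03. Smad4, the common partner of the pathway, stood at 29.0 and 25.2 TPM (-0.12, higher in replicate 1) and Smad3 at 24.2 and 22.3 TPM (0.03, not past the test). Angptl7, a secreted angiopoietin-like protein, was at 10.9 and 24.1 TPM (1.19), while Tppp3, a marker of tendon sheath cells, stood at 20.95 and 11.34 TPM (-0.83) and the early growth response factor Egr1 at 1.62 and 0.59 TPM (-1.45).

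Markers of other cell types differed between the libraries beside the members, and their part in the values above was not tested. All 10 slow fibre genes were higher in replicate 2, past 1.5-fold, and their median log2 ratio was 1.36. Their levels summed to 1425 TPM in replicate 1, against 3583 in replicate 2, and the lowest of them, Pln, was at 2.97 and 20.02 TPM. Of these genes Myl2, Myl3 and Myh7, the regulatory, essential and heavy chains of slow myosin, had log2 ratios of 1.45, 1.44 and 1.34. The largest were Pln (2.36), Tnni1 (1.51) and, after Myl2 and Myl3, Tnnc1 (1.36). The 8 muscle fibre genes were all higher in replicate 1, by less than 1.5-fold, with a median of -0.28. Several of them are fast fibre forms, such as Tnnt3 (-0.28), while Acta1, made in all fibres, differed less (-0.10). This list thus does not stand for all fibres alike. Of 10 fibro-adipogenic and fibroblast genes 9 were higher in replicate 1, 5 of them past 1.5-fold, with a median of -0.68 and sums of 370 and 212 TPM. Gsn (-0.91), Dpt (-0.89), Pi16 (-1.20) and Dpp4 (-1.05) were among these, with Smoc2 (-0.27), while Ly6a (0.06) did not pass the test. The 7 members that passed were higher in replicate 2, as the slow fibre genes were, and 9 of the 10 fibro-adipogenic genes were higher in replicate 1.

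Markers of cartilage and bone, which share several of the members, were low in sum, as several members were. Their part in the values of the members was not tested. Of 9 cartilage genes 3 had enough reads to test, with a median log2 ratio of 0.75, against 0.80 for the members. A median of 3 genes is the value of 1 of them, here Sox9. Of the 3 tested genes 2, Sox9 (0.75) and Col2a1 (1.13), were higher in replicate 2, past 1.5-fold, with Col2a1 at 22 and 47 reads. Col9a1 (-0.53) did not pass. The list summed to 1.87 and 2.43 TPM. Aggrecan (Acan), the defining cartilage proteoglycan, had 1 and 3 reads, and Matn1 and Snorc had 0 in both libraries. Of 6 bone genes 3 were tested, with a median of 0.50, the value of Runx2. Alpl was higher in replicate 2, past 1.5-fold (0.77), while Dmp1 (-0.59) and Runx2 (0.50) did not pass. The bone list summed to 4.54 and 5.86 TPM, and its defining genes Bglap, Ibsp and Sp7 were at 0 reads in either library, a count that allows up to 3 reads.

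Of 4 genes listed for the junction of muscle and tendon, where Thbs4 is also known, 0 passed toward replicate 2. Only 1, Lama2 (-0.10), was higher in replicate 1. Lama2 and Itga7 are also present along whole muscle fibres, so in bulk RNA their values do not speak of the junction alone. Col22a1, a collagen of that junction, was at 2.99 and 2.94 TPM (log2 ratio 0.09, adjusted p = 0.427 by the exact binomial test), and Itga7 at 22.9 and 20.3 TPM (-0.05). Of 5 smooth muscle genes 1, Rgs5 (0.12), passed toward replicate 2 and 3 toward replicate 1, with Acta2 at -0.50 and Tagln at -0.67, and the sum was 105.2 and 90.7 TPM.

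**Figure D5:**
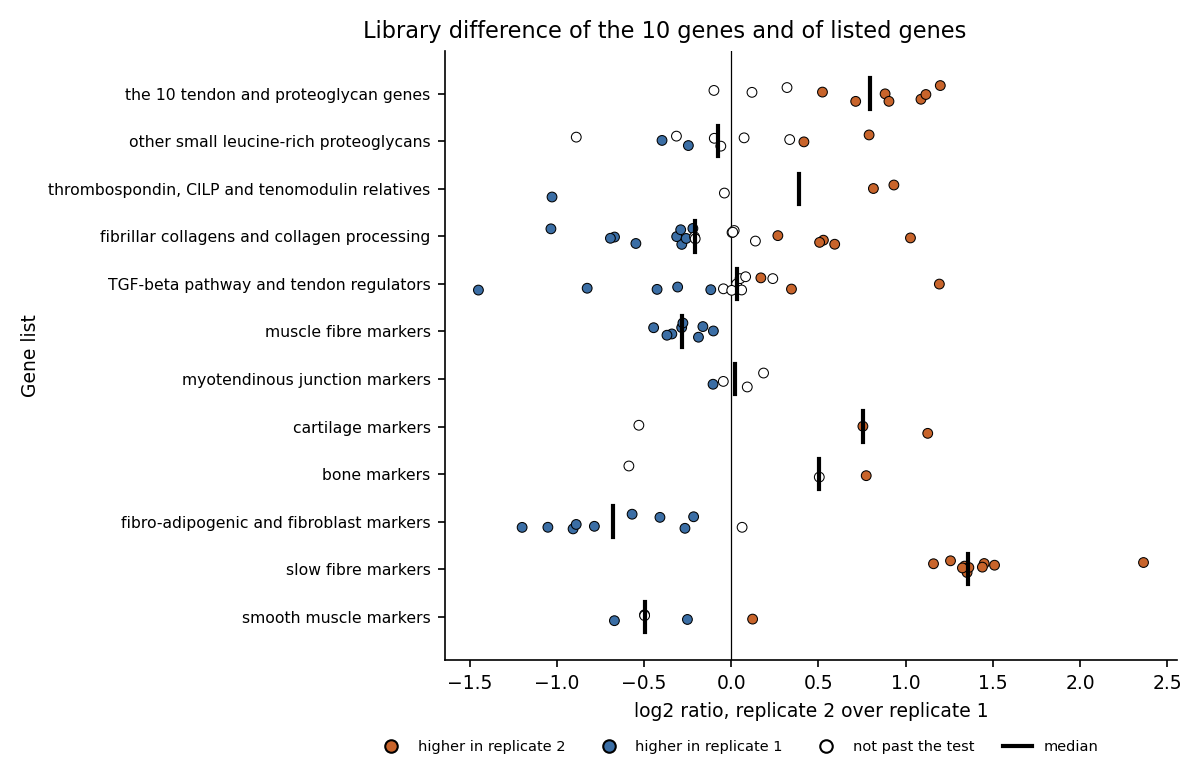
Log2 ratio of replicate 2 over replicate 1 of each tested gene, 1 row per list, with the list median as a bar. Orange points were higher in replicate 2 and blue ones in replicate 1 at an adjusted p under 0.05, and open points did not pass. The 10 genes have their median at 0.80, to the left of the slow fibre genes at 1.36, and the fibro-adipogenic genes have theirs at -0.68.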

How the data were processed

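Total RNA of 2 gastrocnemius libraries was analysed from tables the authors deposited. The first tables give, per the file headers, expected counts and TPM. They also give posterior means, bounds and standard deviations, read as scores deposited by the authors, and the percent of its gene that each transcript makes, per the file headers. The second tables, deposited by the authors, hold estimated counts and TPM per transcript, summed here to genes. Per the deposited notes they use mm10 and GENCODE M21; the sources used here do not name the programs. The reference is B6-like, so reads of CAST alleles may match less well. Spike-ins (96) and 26249 entries that name no gene, with 6 and 3 reads, stayed out of the tests.

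Expected counts were rounded, scaled by TMM (edgeR 4.0.16, R 4.3.3) and tested by exact binomial tests (scipy 1.17.1) on genes with 20 or more reads in all, after a check on simulated data. Log2 ratios, replicate 2 over replicate 1, had 0.5 added to each count. Clopper-Pearson intervals (95%) cover counting error alone, as reads may stem from 1 molecule. With 1 group edgeR's quasi-likelihood test could not be used. Members, 12 lists of 113 genes, tests and alternatives were chosen with earlier results of these data known. Named besides the members are the 3 most abundant genes of each list, up to 3 more past the test and 1.5-fold with the largest fold, and genes overlapping a member. Other named genes (Podn, Acan, Cnmd, Matn1, Snorc, Bglap, Ibsp, Sp7) were chosen after their values were seen. The result of 1 of the lists is not reported here.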

Additional observations from a re-analysis of the deposited data

How the results depend on the processing

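The counts of 0 genes higher in replicate 1 and 6 past 1.5-fold, and the direction of the median, held under the 7 alternatives tried: DESeq2 size factors, total counts, spike-in totals, no count filter, a minimum of 200, the second tables and posterior mean counts. The count of 7 higher in replicate 2 was 8 with spike-in totals and 7 under the others. The median of the genes ran from 0.75 to 0.88. Mkx was not tested at a minimum of 200, which left 9 genes. The one change in a gene was Bgn, which passed with spike-in totals (log2 ratio 0.17, adjusted p = 0.0197 by the exact binomial test), against adjusted p up to 0.330 elsewhere. Spike-in totals shifted the median of all genes to 0.05 and the calls from 2142 higher in replicate 2 and 1736 in replicate 1 to 2843 and 1255. The summed level of the genes, 95.5 TPM, was 139.7 TPM in the second tables and 204.9 TPM when rescaled to protein-coding genes; the mean level moved by more than 1 SD in 6 of 10 genes in the second tables and 10 of 10 when rescaled. With posterior mean TPM it moved in 0. With 2 libraries, leaving 1 out gives the value of the other: the sum was 75.92 TPM without replicate 2 and 115.05 without replicate 1. Without replicate 2 the level of Cilp2 was 1.37 TPM against a mean of 2.21, that of Chad 3.74 against 5.79 and that of Comp 2.16 against 3.33, each over 1.5 times lower. No paired analysis was possible because there is 1 group. Counts of about 50 reads, as for Mkx, limit what can be told.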

Other observations

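Comp and Cilp2 lie on chromosome 8, 485870 bases apart in mm10, and both had more than 2 times the scaled count in replicate 2. The 26 genes annotated between them included 18 that were tested, with a median log2 ratio of -0.00 and a range of -0.53 to 1.26. Of these 18, 4 were higher in replicate 2 (Ndufa13, Rfxank, Slc25a42 and Gdf1) and 2 in replicate 1 (Mau2 and Cers1), and Gdf1 was the 1 past 1.5-fold. These names were chosen after their values were seen. Gdf1 and Cers1 are known to share a transcript, so the reads of each are uncertain.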
